A study of Rattus norvegicus with 294 samples.

Results

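Osteoblasts captured from rat vertebrae on day 8 of dosing with an antibody against sclerostin were compared with osteoblasts of vehicle rats, at 50 mg/kg and at 3 mg/kg, each dose on its own. Every array labelled as osteoblast and as 8 days was taken, which gave 14 of the 97 osteoblast arrays of the series. They were 5 arrays at 50 mg/kg, 4 at 3 mg/kg and 5 of vehicle rats. All 3 groups were female Sprague-Dawley rats that lost their ovaries at 6 months of age and then went untreated for 8 weeks, so the vehicle rats carried the ovariectomy as well. The antibody had been engineered to provoke little immune response in the rat, and it or its vehicle was given subcutaneously once a week. Osteoblasts were cut by laser from frozen sections of the 3rd lumbar vertebra of the first 5 animals of a group, with calcein labels of the bone surface as a guide, and 1.5 ng of RNA was amplified. The captures could therefore hold RNA of cells next to the osteoblasts. The labels name no rat, so p-values measure only the spread between arrays, here that within all groups of the 97 osteoblast arrays.

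Sclerostin is a secreted protein made mainly by osteocytes. It binds the Wnt co-receptors Lrp5 and Lrp6, is held in bone by Lrp4, and restrains bone formation. Osteoblasts lay down a collagen matrix, cross-link it and mineralize it, while osteoclasts of the blood lineage remove it.

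The measurements were microarray intensities, one probe set per gene, given here as log2 signals. On this scale a difference of 1 is a fold change of 2. Of 14217 genes with a probe set, 11420 passed a filter on low values and were tested with limma, and a gene passed the test at an adjusted p under 0.05. All 10 osteoblast markers with a probe set, among them Bglap, Col1a1 and Alpl, were above the array median in all 14 arrays. So were all 13 erythroid markers, all 13 macrophage markers and 8 of 11 osteoclast markers, while the osteoclast genes Calcr, Tnfrsf11a and Clcn7 were above it in none. Of the osteocyte markers, 11 of 19 were above the median in all 14 arrays, and Sost, Phex and Fgf23 in none. Correlations between these arrays ran between 0.959 and 0.985. The first principal component held 26.0% of the variance. On it the 50 mg/kg arrays lay at 12.1, 27.1, 21.0, 4.15 and 14.3 and the 3 mg/kg arrays at −12.5, 17.1, −15.5 and 13.3, against −15.9, −17.2, −23.5, −7.17 and −17.4 for the vehicle arrays. The 50 mg/kg and vehicle arrays were thus apart on it, and the 3 mg/kg arrays lay on both sides of 0.

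At 50 mg/kg, 928 genes (8.13% of those tested) passed the test. The rises numbered 590 (5.17%) and the falls 338 (2.96%), and the median change over all tested genes was 0.03. Of the 928, 35 rose and 38 fell by a log2 difference of 1 or more. The 50 mg/kg and vehicle arrays did not overlap for 477 of the 928, beside 761 of all tested genes (6.66%). Tested genes without overlap of the 3 mg/kg and vehicle arrays were not counted. At 3 mg/kg no gene passed the test with limma, while 790 genes (6.92%) had an unadjusted p under 0.05. The smallest adjusted p at 3 mg/kg was 0.0501, for Cfap100. The number of genes that passed in the same direction at both doses was therefore 0, and all 928 passed at 50 mg/kg only. Of these, 356 had an unadjusted p under 0.05 at 3 mg/kg in the same direction, 261 upward and 95 downward. Both comparisons share the 5 vehicle arrays. Passing at 50 mg/kg alone does not show a difference between the doses, and a direct test of 50 against 3 mg/kg found only 3 such genes (0.0263%).

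The rises at 50 mg/kg were led by Car1, Omd, Lox, Col11a1, Srm and Cercam. Lox, lysyl oxidase, cross-links collagen and elastin outside the cell. Its log2 signal was 5.92, 6.39, 6.16, 7.43 and 7.66 at 50 mg/kg and 7.08, 5.17, 6.999 and 5.56 at 3 mg/kg, against 4.97, 5.39, 4.66, 5.10 and 5.58 with vehicle. All 50 mg/kg arrays lay above all vehicle arrays, whereas at 3 mg/kg replicates 1 and 3 were well above and replicate 4 sat at the top of the vehicle range. Lox rose 2.97-fold at 50 mg/kg (log2 change 1.57, SE 0.25, adjusted p = 2.8e-05, limma). Its log2 change at 3 mg/kg was 1.06 (SE 0.26, unadjusted p = 0.00012, adjusted p = 0.12).

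Omd encodes osteomodulin, a small leucine-rich proteoglycan of mineralized matrix. It had log2 signals of 6.73, 7.71, 6.66, 7.13 and 8.67 at 50 mg/kg and of 7.04, 6.30, 7.40 and 6.45 at 3 mg/kg, against 6.07, 5.43, 5.35, 6.12 and 6.00 with vehicle. Neither dose overlapped the vehicle group. The rise at 50 mg/kg was 3.00-fold (log2 change 1.58, SE 0.29, adjusted p = 0.00017), and the log2 change at 3 mg/kg was 1.001 (SE 0.30, unadjusted p = 0.0014, adjusted p = 0.35). Col11a1, a chain of the fibrillar collagen XI that helps to start collagen fibrils, had log2 signals of 8.11, 8.78, 9.03, 9.02 and 9.05 at 50 mg/kg. Its 3 mg/kg arrays had 8.59, 6.52, 8.96 and 7.84 and its vehicle arrays 7.66, 6.87, 7.16, 7.15 and 7.62. The 50 mg/kg arrays stood above all vehicle arrays, and 3 mg/kg replicate 2 stood below them. The rise of Col11a1 at 50 mg/kg was 2.84-fold (log2 change 1.50, SE 0.43, adjusted p = 0.018). Cercam, a relative of the enzymes that add galactose to collagen, rose 2.59-fold (log2 change 1.37, SE 0.26, adjusted p = 0.00026), with signals of 6.19 to 7.17 at 50 mg/kg and 5.36 to 6.86 at 3 mg/kg, against 4.96 to 6.07 with vehicle. The other probe sets moved less than those used here, by 0.74 for Lox and by 0.19 and 0.03 for Col11a1. Their mean signals over the osteoblast arrays were 3.18 for Lox and 2.26 and 2.67 for Col11a1, below the array medians of 3.43 to 3.72. The mean over its probe sets gave Col11a1 a log2 change of 0.57.

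Car1, a carbonic anhydrase abundant in red cell precursors, had the largest rise of all. Its log2 signal was 10.20, 10.93, 10.48, 9.49 and 10.22 at 50 mg/kg and 8.65, 10.62, 8.41 and 10.47 at 3 mg/kg, against 8.68, 8.49, 8.21, 8.79 and 8.21 with vehicle. Replicates 2 and 4 of 3 mg/kg matched the 50 mg/kg arrays and replicates 1 and 3 the vehicle arrays, the opposite order to Lox. The rise of Car1 at 50 mg/kg was 3.45-fold (log2 change 1.79, SE 0.28, adjusted p = 2.8e-05), and the log2 change at 3 mg/kg was 1.06 (SE 0.30, adjusted p = 0.27). Srm, spermidine synthase, makes a polyamine that growing cells need. Its log2 signal was 7.54, 8.26, 8.06, 7.01 and 7.76 at 50 mg/kg and 7.13, 6.93, 6.90 and 7.52 at 3 mg/kg, against 6.09, 6.46, 5.69, 7.52 and 6.00 with vehicle. Vehicle replicate 4 was the one vehicle array within the range of 50 mg/kg. Srm rose 2.59-fold at 50 mg/kg (log2 change 1.37, SE 0.27, adjusted p = 0.00055).

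**Figure D1:**
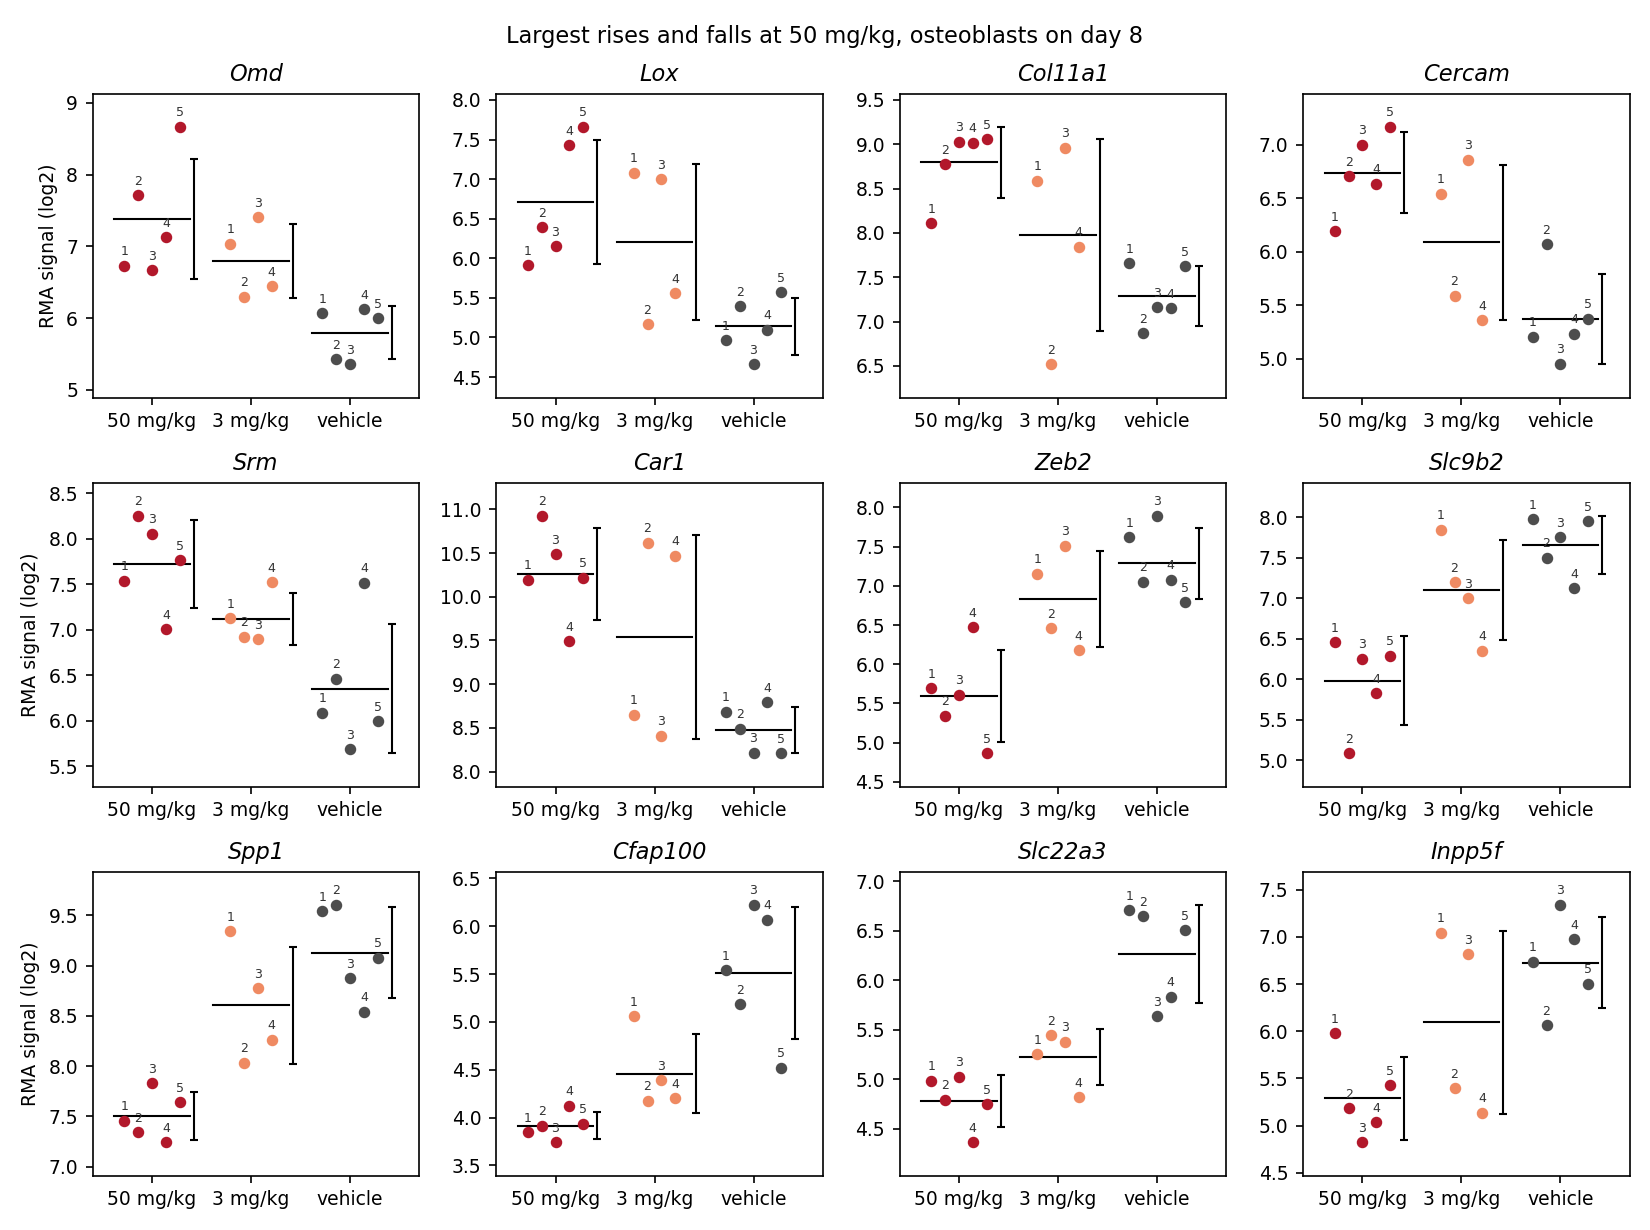
Log2 signal (vertical axis) of the 6 largest rises and 6 largest falls at 50 mg/kg in each of the 14 day 8 osteoblast arrays, with 50 mg/kg on the left, 3 mg/kg in the middle and vehicle on the right. Numbered points are replicates, and lines are group means with the SD beside them. Lox and Omd were high in 3 mg/kg replicates 1 and 3, Car1 in replicates 2 and 4.

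The promoters of Omd and Srm are shown, the matrix gene and the growth gene that rose most among those with a promoter sequence here. They come from RefSeq (GRCr8) and run from 250 bases before to 50 after the start of the gene, Omd at chr17:15274821-15275120 on the minus strand and Srm at chr5:164308752-164309051 on the plus strand. Matches to 3 motifs, none of which holds another, were sought on both strands: TCAAAG, the core bound by the Wnt effectors of the Tcf and Lef family, TGTGGT, the core bound by the osteoblast factor Runx2, and CACGTG, the E-box that Myc and other factors bind. Capitals mark a match.
Omd promoter: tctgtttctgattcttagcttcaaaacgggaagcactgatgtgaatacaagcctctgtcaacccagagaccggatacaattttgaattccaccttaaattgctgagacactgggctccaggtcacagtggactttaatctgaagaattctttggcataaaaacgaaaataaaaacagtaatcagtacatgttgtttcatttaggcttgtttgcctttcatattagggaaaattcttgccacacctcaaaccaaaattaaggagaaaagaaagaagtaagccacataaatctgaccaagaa
Srm promoter: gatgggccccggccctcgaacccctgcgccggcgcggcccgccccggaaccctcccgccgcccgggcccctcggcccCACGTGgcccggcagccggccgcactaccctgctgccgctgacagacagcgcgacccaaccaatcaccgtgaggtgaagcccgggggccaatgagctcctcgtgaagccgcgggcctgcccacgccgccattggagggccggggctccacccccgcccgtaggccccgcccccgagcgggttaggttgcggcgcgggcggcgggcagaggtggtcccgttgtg
The Omd window held none of the 3 motifs, and the Srm window held CACGTG at position −173 from the gene start. Over all promoters in the table TCAAAG was present in 16.1%, TGTGGT in 17.3% and CACGTG in 6.42%. Among the genes that rose at 50 mg/kg the shares were 15.1%, 11.9% and 11.5%, over 522 promoters, and among those that fell they were 9.06%, 10.9% and 8.70%, over 276. For all tested genes they were 11.96%, 12.8% and 9.36%. These are descriptions of letters in a window, and both genes were chosen after their values were seen.

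Collagen chains moved unevenly. Of 21 tested, Col11a1 among them, 3 rose (14.3%) and 1 fell (4.76%) at 50 mg/kg, and their median log2 change was 0.13. Over all tested genes 5.17% rose and 2.96% fell. Col11a2, the partner chain of Col11a1, rose by 1.23 (SE 0.29, adjusted p = 0.0034). Col24a1, a minor fibrillar collagen of bone, rose by 0.79 (adjusted p = 0.018), and Col12a1, a collagen of fibril surfaces, fell by 0.59 (adjusted p = 0.029), with the call lost in 5 and in 10 of the 23 other settings tried. The other 2 probe sets of Col12a1, at mean signals of 3.05 and 2.98 below the array medians, changed by 0.11 and 0.05. The mean over its probe sets was −0.14.

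Col1a1, the main collagen chain of bone, did not pass the test. Its log2 signal was 12.42, 12.87, 12.89, 12.71 and 12.94 at 50 mg/kg and 12.94, 11.25, 13.19 and 12.002 at 3 mg/kg, against 11.83, 12.01, 11.76, 12.11 and 11.87 with vehicle. Thus the 50 mg/kg arrays were all above the vehicle arrays, and at 3 mg/kg replicates 1 and 3 were at or above the 50 mg/kg range while replicate 2 was below all vehicle arrays. The log2 change of Col1a1 at 50 mg/kg was 0.85 (SE 0.41, adjusted p = 0.20). Its SE came from the spread in all osteoblast groups of the series. In a limma fit of the 50 mg/kg and vehicle groups alone the adjusted p was 0.0048. Col1a1 did not pass in the other 22 of the 23 settings tried, at adjusted p values up to 0.49. A second probe set of Col1a1, of similar mean signal, changed by 0.39. Bglap, osteocalcin, a bone matrix protein of osteoblasts, had a similar pattern, at 12.35, 12.83, 12.77, 12.94 and 13.13 with 50 mg/kg and 12.92, 11.61, 13.10 and 11.93 with 3 mg/kg, against 12.06, 11.93, 11.96, 12.01 and 12.06 with vehicle. Its log2 change at 50 mg/kg was 0.80 (SE 0.38, adjusted p = 0.20, or 0.0069 in the fit of both groups alone). Bglap too did not pass in the other 22 settings. After quantile normalization the log2 changes were 0.54 for Col1a1 and 0.50 for Bglap. Col1a2, the other chain of collagen I, differed by 0.45 (adjusted p = 0.54), Alpl, alkaline phosphatase, by 0.52 (adjusted p = 0.14) and Ibsp, bone sialoprotein, by −0.60 (adjusted p = 0.18). A second probe set of Col1a2 changed by 0.76.

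Of 22 enzymes and chaperones of collagen modification 3 rose at 50 mg/kg (13.6%), Lox among them, and none fell, with a median of 0.22. Over all tested genes 5.17% rose and 2.96% fell. Fkbp10, a chaperone and folding enzyme of procollagen, rose by 0.85 (adjusted p = 0.019) and P3h1, a prolyl hydroxylase of collagen I, by 0.67 (adjusted p = 0.037). The calls of Fkbp10 and P3h1 were lost in 3 and in 9 of the 23 other settings. Of 15 genes of mineralization and phosphate handling 3 rose (20%) and none fell, with a median of 0.22. Slc13a5, a citrate importer that osteoblasts use to load bone with citrate, had 7.31, 7.25, 7.37, 7.73 and 8.39 at 50 mg/kg and 6.93, 6.28, 7.14 and 6.77 at 3 mg/kg, against 6.30, 6.63, 5.88, 6.02 and 6.49 with vehicle. Its 50 mg/kg arrays did not overlap the vehicle arrays, and Slc13a5 rose by 1.34 (SE 0.25, adjusted p = 0.00021). Smpd3, a sphingomyelinase needed for bone mineralization in mice, rose by 0.99 (adjusted p = 0.014), and Car2, a carbonic anhydrase of osteoclasts and red cells, by 0.94 (adjusted p = 0.0012).

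Falls at 50 mg/kg were led by Zeb2, Slc9b2, Spp1, Cfap100, Slc22a3 and Inpp5f. Spp1, osteopontin, a phosphorylated matrix protein to which osteoclasts attach, was at 7.46, 7.34, 7.83, 7.24 and 7.64 with 50 mg/kg and at 9.34, 8.03, 8.78 and 8.26 with 3 mg/kg, against 9.54, 9.60, 8.88, 8.54 and 9.08 with vehicle. Its 50 mg/kg arrays were below every other array, and Spp1 fell by 1.63 (SE 0.32, adjusted p = 0.00055), a 3.09-fold lower level. It was the one osteoblast marker of 10 tested that passed the test in either direction, and the median of the 10 was 0.49.

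Cfap100, a protein of cilia and flagella, was at 3.85, 3.92, 3.74, 4.12 and 3.94 with 50 mg/kg and at 5.06, 4.18, 4.39 and 4.20 with 3 mg/kg, against 5.54, 5.18, 6.22, 6.07 and 4.52 with vehicle. The 3 groups were ordered by dose in their means, and only 3 mg/kg replicate 1 lay inside the vehicle range. Cfap100 fell by 1.59 at 50 mg/kg (SE 0.20, adjusted p = 8.6e-08). At 3 mg/kg the log2 change of −1.05 (SE 0.21) missed the threshold at an adjusted p of 0.0501. It passed in 3 other settings and in 4 fits that left out 1 array, at adjusted p values between 0.00029 and 0.046, and not in the remaining 16, where day 8 arrays alone gave 0.77.

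Slc22a3, a transporter of organic cations, was at 4.99, 4.80, 5.03, 4.36 and 4.75 with 50 mg/kg and at 5.25, 5.45, 5.38 and 4.82 with 3 mg/kg, against 6.71, 6.65, 5.64, 5.84 and 6.50 with vehicle. Neither dose overlapped vehicle. Slc22a3 fell by 1.48 at 50 mg/kg (SE 0.25, adjusted p = 8.7e-05), and its log2 change at 3 mg/kg was −1.04 (SE 0.27, adjusted p = 0.14). Slc9b2, a sodium and proton exchanger abundant in osteoclasts, fell by 1.68 (SE 0.31, adjusted p = 0.00021) and its arrays ran from 5.09 to 6.46 at 50 mg/kg and from 6.35 to 7.85 at 3 mg/kg, against 7.12 to 7.98 with vehicle. Zeb2, a zinc finger repressor of transcription, fell by 1.69 (SE 0.36, adjusted p = 0.0011) and Inpp5f, a phosphoinositide phosphatase, by 1.44 (SE 0.27, adjusted p = 0.00028). Zeb2 ran from 4.86 to 6.47 at 50 mg/kg and from 6.18 to 7.51 at 3 mg/kg, against 6.79 to 7.89 with vehicle, and Inpp5f from 4.82 to 5.98 and from 5.14 to 7.04, against 6.06 to 7.34. In both genes no 50 mg/kg array reached the vehicle range. The probe sets of Zeb2 disagreed, since the other 4 changed by −0.22, −0.20, −0.06 and 0.05. Their mean signals over the osteoblast arrays were 2.51, 4.65, 3.35 and 3.15, where array medians ran from 3.43 to 3.72. Those of Inpp5f disagreed too, where the second, at a mean signal of 5.23, changed by −0.28. With probe sets averaged, the log2 changes were −0.42 for Zeb2 and −0.86 for Inpp5f, and both still passed the test.

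Matrix glycoproteins and proteoglycans moved in both directions, 3 up (10.3%) and 4 down (13.8%) of 29 tested at 50 mg/kg. The shares over all tested genes were 5.17% up and 2.96% down. Tnc, tenascin C, a matrix protein of growing and repairing tissue, had 3.41, 3.65, 4.01, 3.52 and 4.13 at 50 mg/kg and 4.44, 4.15, 4.74 and 4.33 at 3 mg/kg, against 5.84, 5.23, 4.92, 4.63 and 4.68 with vehicle. The 50 mg/kg arrays were the lowest 5 of the 14, and Tnc fell by 1.32 (SE 0.24, adjusted p = 0.00017). Fbn1, fibrillin, a microfibril protein that binds latent growth factors, fell by 0.59 (adjusted p = 0.015).

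In Wnt, TGF-beta and growth factor signalling, the listed genes that passed the test at 50 mg/kg were all falls. Over all tested genes 5.17% rose and 2.96% fell. The falls were 8.70% of the Wnt ligands, receptors and target genes and 12.5% of the Wnt antagonists and feedback genes. They were 11.1% of the TGF-beta and BMP genes and 5% of the insulin-like and fibroblast growth factor genes. Each of these shares rests on 1 to 3 genes. Of 23 Wnt ligands, receptors and target genes none rose and 2 fell, with a median of −0.04, and of 8 Wnt antagonists and feedback genes none rose and 1 fell. Lrp4, which holds sclerostin in bone, had 4.83, 4.87, 4.53, 5.12 and 5.15 at 50 mg/kg and 5.01, 5.37, 5.42 and 4.96 at 3 mg/kg, against 5.91, 5.47, 5.80, 5.87 and 5.75 with vehicle. Both doses lay below all vehicle arrays. Lrp4 fell by 0.86 at 50 mg/kg (SE 0.18, adjusted p = 0.00087), and its change at 3 mg/kg was −0.57 (adjusted p = 0.46). Fzd8, a Wnt receptor, fell by 0.61 (adjusted p = 0.040), and Wif1, a secreted Wnt inhibitor whose signals lay near the array median, by 0.49 (adjusted p = 0.026). Those calls were lost in 10 and in 8 of the 23 other settings. Genes often used as readouts of Wnt signalling did not pass the test at 50 mg/kg. The log2 changes were 0.12 for Lef1 (adjusted p = 0.85), 0.13 for Nkd2 (adjusted p = 0.72), 0.13 for Ccn4 (adjusted p = 0.80), 0.00 for Myc (adjusted p = 1.0) and −0.43 for Ccnd1 (adjusted p = 0.11). Sost, Axin2, Wnt5a, Tnfrsf11b and Tnfsf11 were below the filter on low values.

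Of 27 genes of TGF-beta and BMP signalling none rose and 3 fell. They were Ltbp2 and Ltbp3, of the family that binds latent TGF-beta in the matrix, which fell by 0.87 (adjusted p = 0.00045) and 0.84 (adjusted p = 0.014), and the receptor Tgfbr1, which fell by 0.72 (adjusted p = 0.0063), or by 0.35 over the mean of its probe sets. Fgfr2 and Fgfr3, receptors of fibroblast growth factors, fell by 1.29 (adjusted p = 0.0062) and 0.47 (adjusted p = 0.046), the 2 falls among 20 listed osteoblast regulators. The other 4 probe sets of Fgfr2 changed by −0.00 to 0.19, at mean signals of 2.57 to 3.44 over the osteoblast arrays, where array medians were 3.43 to 3.72. The call of Fgfr2 was lost when probe sets were averaged, and that of Fgfr3 in 11 of 23 settings. Spry4, an inhibitor of growth factor receptor signalling, fell by 0.75, the one change among 20 genes of insulin-like and fibroblast growth factor signalling. Igf1 differed by 0.12 (adjusted p = 0.81).

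Among genes of bone resorption falls outnumbered rises at 50 mg/kg, whereas over all tested genes 5.17% rose and 2.96% fell. Of 13 genes by which bone cells regulate osteoclasts or degrade matrix none rose and 3 fell (23.1%), with a median of −0.25. Mmp13, a collagenase of osteoblasts, had 9.28, 8.50, 9.41, 8.56 and 9.20 at 50 mg/kg and 9.76, 9.27, 9.75 and 9.80 at 3 mg/kg, against 10.74, 10.20, 10.62, 9.99 and 10.49 with vehicle. Both doses were below every vehicle array, and Mmp13 fell by 1.42 at 50 mg/kg (SE 0.26, adjusted p = 0.00019). The chemokines Cxcl12, which retains blood cell precursors in marrow, and Cxcl14 fell by 0.76 (adjusted p = 0.0011) and 1.03 (adjusted p = 0.0022). A second probe set of Cxcl14 changed by 0.05, which left a mean of −0.49 over its probe sets, and the 2 others of Cxcl12 changed by −0.98 and −0.12. Mean signals over the osteoblast arrays were 3.58 for that set of Cxcl14 and 9.49 and 2.72 for those of Cxcl12. Array medians ran from 3.43 to 3.72.

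Of 9 osteoclast markers tested 3 fell (33.3%), 1 rose (11.1%) and the median was −0.44. The shares over all tested genes were 2.96% and 5.17%. Ctsk, cathepsin K, the main collagen-degrading protease of osteoclasts, had 12.20, 11.61, 11.79, 11.23 and 11.88 at 50 mg/kg and 13.24, 12.54, 12.58 and 12.01 at 3 mg/kg, against 13.15, 12.91, 12.58, 12.73 and 13.09 with vehicle. The 50 mg/kg arrays were below all vehicle arrays. Ctsk fell by 1.15 (SE 0.29, adjusted p = 0.0062), Acp5, the acid phosphatase TRAP, by 1.16 (adjusted p = 0.0042), and Tcirg1, a subunit of the osteoclast proton pump, by 0.75 (adjusted p = 0.0018), or by 0.48 over the mean of its probe sets. The riser was Car2. The summed linear signal of the osteoclast markers ran between 5472 and 10456 at 50 mg/kg and between 8602 and 16309 at 3 mg/kg, against 12322 to 15480 with vehicle. In such captures fewer cells of a type and less RNA per cell cannot be told apart. The part of osteoclast RNA in the falls of Spp1, Slc9b2 and Mmp13 was not tested.

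Growth and energy genes rose together at 50 mg/kg. Of 41 ribosomal protein genes tested 30 rose and none fell, and their median log2 change was 0.49. Of 48 genes of the mitochondrial respiratory chain 26 rose and none fell, with a median of 0.53. Cell cycle genes gave 16 rises and no fall among 47, with a median of 0.32, and genes of ribosome biogenesis 9 rises and no fall among 36, with a median of 0.18. The share of all tested genes that rose was 5.17%. The medians at 3 mg/kg were 0.28, 0.30, 0.27 and 0.13, beside 0.02 over all genes, and none of these genes passed the test.

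Rplp0, a protein of the ribosomal stalk, had log2 signals of 12.15, 12.54, 12.25, 11.79 and 12.005 at 50 mg/kg and 11.67, 11.96, 11.47 and 12.09 at 3 mg/kg, against 11.00, 10.82, 11.09, 11.91 and 10.74 with vehicle. Vehicle replicate 4 was at the level of the 50 mg/kg arrays. Rplp0 rose by 1.03 (adjusted p = 0.00015), Rpl27 by 0.89, Rps3 by 0.88 and Rpl6 by 0.84. Among respiratory chain genes Cox5b, a subunit of cytochrome c oxidase, had 10.42, 10.92, 10.78, 10.51 and 10.41 at 50 mg/kg and 10.13, 11.19, 9.94 and 10.92 at 3 mg/kg, against 9.69, 10.13, 9.54, 10.03 and 9.40 with vehicle. The 50 mg/kg arrays did not overlap vehicle, and Cox5b rose by 0.85, Cox7b by 0.98, Cox6b1 by 0.77 and Atp5f1b, a subunit of ATP synthase, by 0.63. Ccnb1, the mitotic cyclin B, had 7.75, 7.94, 7.69, 7.87 and 7.49 at 50 mg/kg and 7.09, 8.33, 7.11 and 7.68 at 3 mg/kg, against 6.90, 6.39, 6.53, 7.25 and 6.95 with vehicle. All 50 mg/kg arrays lay above all vehicle arrays, and Ccnb1 rose by 0.94 (adjusted p = 0.0033). Its kinase Cdk1 rose by 0.82, Cdca3, which acts at entry into mitosis, by 0.86, and Mcm2, of the replicative helicase, by 0.67. In ribosome biogenesis Fbl, the methylase fibrillarin, rose by 1.09, Nhp2 by 0.81 and Nop10 by 0.67, the last 2 proteins of the same small nucleolar particle.

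Erythroid markers moved with these lists. Of 13 tested 8 rose and none fell at 50 mg/kg, with a median of 0.66. Klf1, the master regulator of red cell genes, had 9.48, 10.37, 9.88, 8.85 and 9.32 at 50 mg/kg and 8.54, 9.67, 8.65 and 9.41 at 3 mg/kg, against 8.34, 8.62, 8.83, 8.83 and 7.99 with vehicle. The lowest 50 mg/kg array, replicate 4, lay just above the vehicle range. Klf1 rose by 1.06 (adjusted p = 0.00015), Gata1, another erythroid regulator, by 0.99 and Ahsp, which stabilizes alpha globin, by 0.66. The summed signal of the erythroid markers ran from 13827 to 20735 at 50 mg/kg and from 10748 to 17755 at 3 mg/kg, against 10164 to 11943 with vehicle. The sums did not overlap between 50 mg/kg and vehicle. The mean log2 signal over the same markers did, at 8.49, 9.27, 9.01, 8.09 and 8.39 with 50 mg/kg, against 8.01, 7.81, 8.11, 8.31 and 7.83 with vehicle, since 50 mg/kg replicate 4 lay below vehicle replicates 3 and 4. No marker of granulocytes (11 tested), macrophages (13), B-lineage cells (9), T and NK cells (16) or megakaryocytes (12) passed the test. The part of red cell precursors in the rise of Car1, Car2 and the ribosomal, respiratory and cell cycle genes was not tested. The counts moved with the settings. After quantile normalization 9 ribosomal protein genes rose (median 0.22), the log2 change of Rpl6 was 0.50, and Atp5f1b and Ahsp, at 0.31 and 0.37, did not pass. With only the day 8 arrays fitted, 18 ribosomal protein, 16 respiratory chain, 6 cell cycle and 3 erythroid genes rose, and with only the 50 mg/kg and vehicle groups fitted, 8 cell cycle and 5 erythroid genes. Without vehicle replicate 3, 13 respiratory chain and 10 cell cycle genes rose. Cell cycle genes that rose numbered 4 without 50 mg/kg replicate 2, 10 without 50 mg/kg replicate 3, 9 without vehicle replicate 2 and 10 without vehicle replicate 5. Erythroid markers that rose numbered 4, 5, 5 and 5 in those fits.

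**Figure D2:**
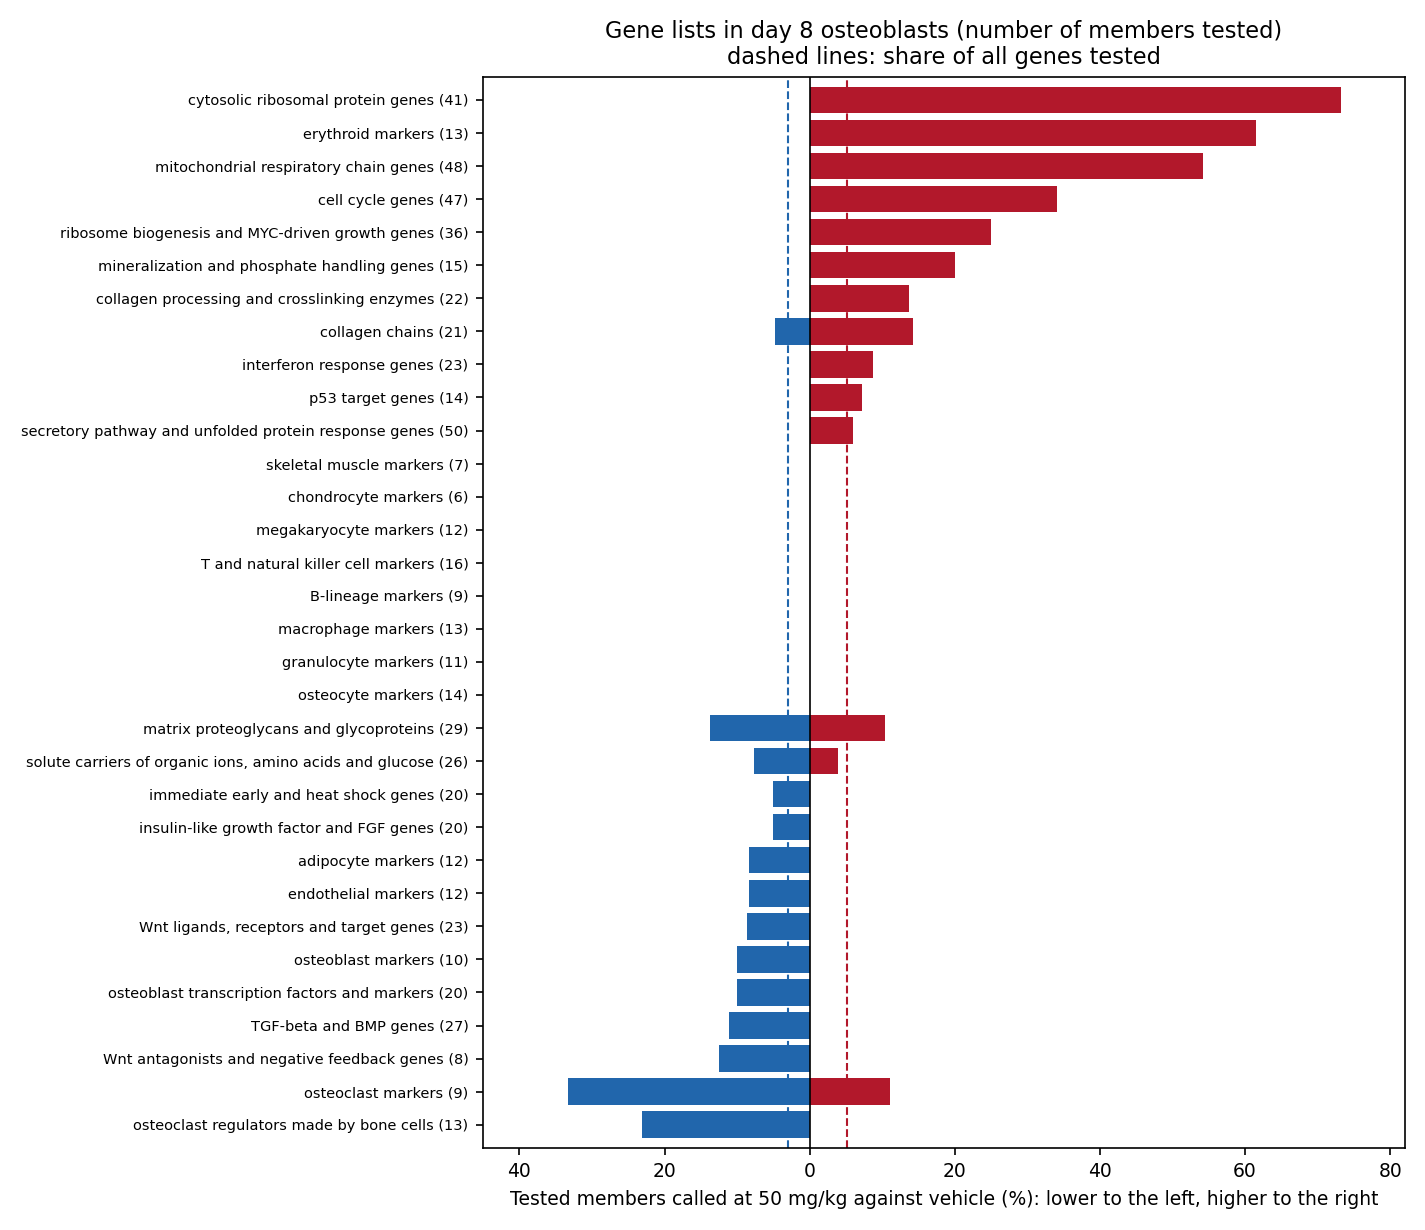
Share of tested members of each gene list that rose (right) or fell (left) at 50 mg/kg on day 8, in percent, with the number of members tested. Dashed lines mark the shares over all tested genes, 5.17% higher and 2.96% lower. Ribosomal protein genes (30 of 41), erythroid markers (8 of 13) and respiratory chain genes (26 of 48) stood furthest to the right.

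**Figure D3:**
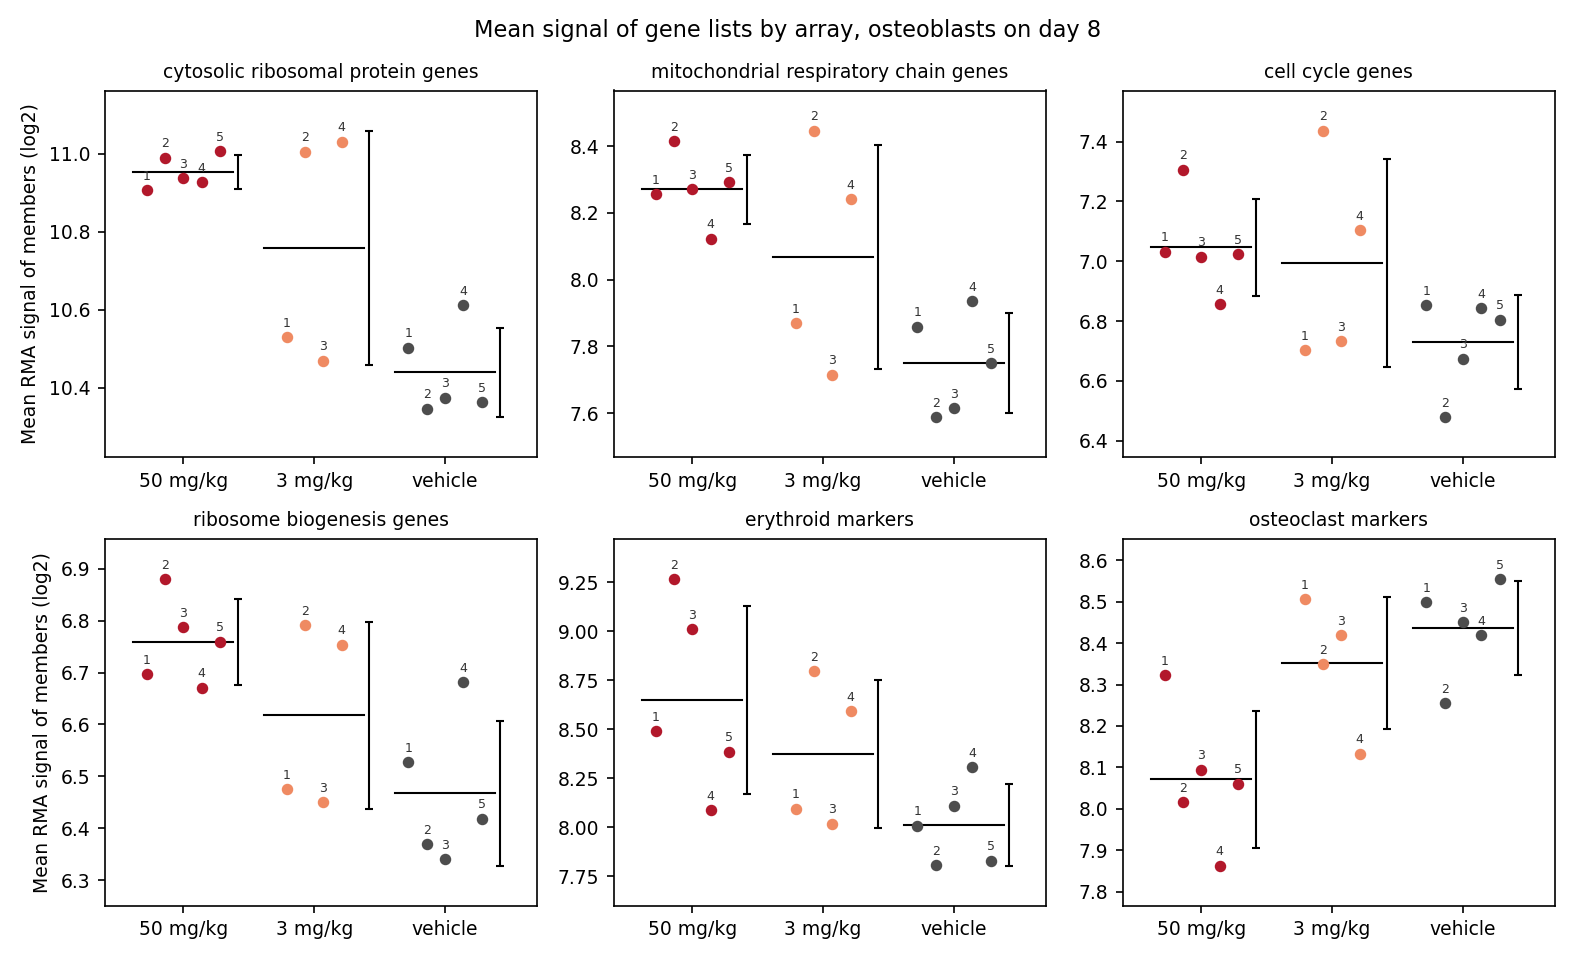
Mean log2 signal of 6 gene lists in each of the 14 arrays, with 50 mg/kg on the left, 3 mg/kg in the middle and vehicle on the right. Numbered points are replicates, and lines are group means with the SD beside them. Ribosomal protein genes averaged 10.91 to 11.01 in 50 mg/kg arrays, against 10.35 to 10.61 in vehicle arrays, and 3 mg/kg replicates 2 and 4 lay at the higher level.

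The 3 mg/kg arrays were not alike, and they differed in opposite ways for matrix and for growth genes. Mean log2 signal of the ribosomal protein genes was 10.53, 11.01, 10.47 and 11.03 in replicates 1 to 4 of 3 mg/kg, where the 50 mg/kg arrays had 10.91 to 11.01 and the vehicle arrays 10.35 to 10.61. For the respiratory chain genes it was 7.87, 8.45, 7.72 and 8.24, where 50 mg/kg arrays had 8.12 to 8.41 and vehicle arrays 7.59 to 7.94. Replicates 2 and 4 were thus at the 50 mg/kg level for both lists and replicates 1 and 3 at the vehicle level. Erythroid markers ran the same way, at 8.09, 8.80, 8.02 and 8.59. Col1a1, Bglap, Lox and Col11a1, whose values stand above, were at the 50 mg/kg level in replicates 1 and 3 and lower in replicates 2 and 4. Col11a2 had 8.47, 6.66, 8.32 and 7.32 and Smpd3 6.44, 5.21, 7.07 and 5.40 in the same order. At 50 mg/kg all 5 arrays were above the vehicle arrays in the means of the ribosomal and respiratory lists and in Col1a1, Bglap, Lox and Col11a1. Replicate 4 of 50 mg/kg had a Lox signal of 7.43, near the top of its group, and the lowest signals of Car1, Srm, Rplp0 and Klf1. Of the falling genes, Lrp4, Mmp13 and Slc22a3 had all 4 replicates of 3 mg/kg below the vehicle arrays and followed neither order. None of these genes passed the test at 3 mg/kg. Tnc was higher in replicates 1 and 3 than in 2 and 4, and only replicate 3 overlapped the vehicle arrays. The numbers of the replicates are names given here in accession order and pair no arrays across groups.

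**Figure D4:**
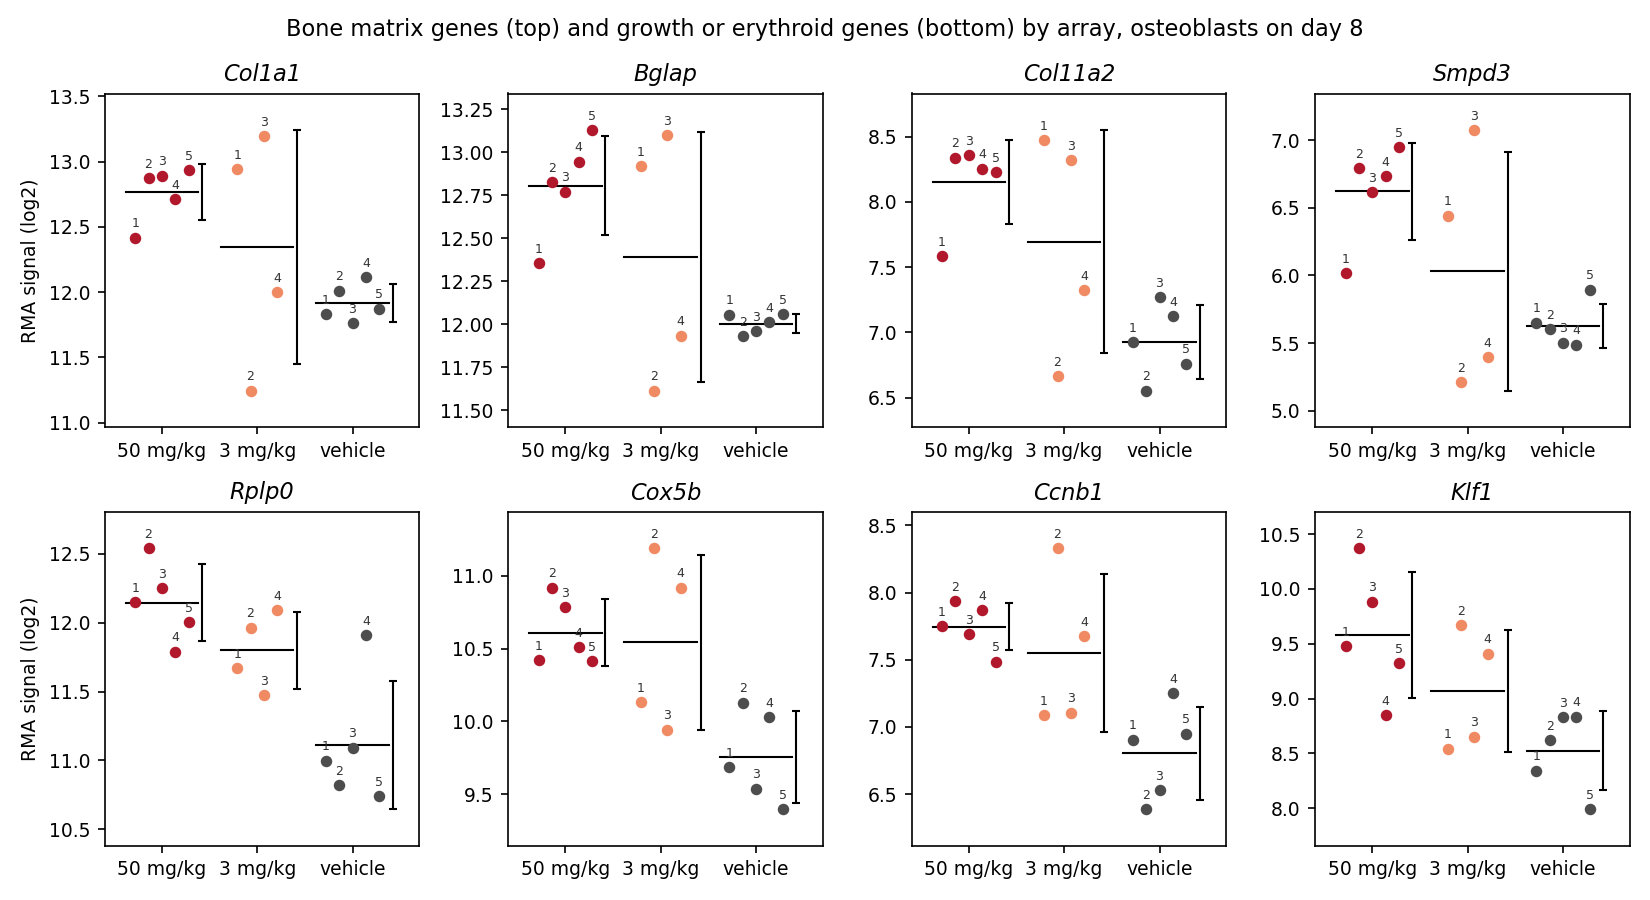
Log2 signal (vertical axis) of 4 bone matrix genes in the top row and of 4 growth or erythroid genes in the bottom row in each array, with 50 mg/kg on the left, 3 mg/kg in the middle and vehicle on the right. Numbered points are replicates, and lines are group means with the SD beside them. At 3 mg/kg replicates 1 and 3 were the high ones for Col1a1, Bglap, Col11a2 and Smpd3, and replicates 2 and 4 for Rplp0, Cox5b, Ccnb1 and Klf1.

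An adjusted p under 0.10 at 3 mg/kg was reached by 8 genes. These were Cfap100 and, each at an adjusted p of 0.0882, Ubl4a, Zfp764, Cox5b, Mybl2, Ndufa12, Oaz1 and Rpl14. All but Zfp764 also passed the test at 50 mg/kg in the same direction. Ubl4a, which helps to insert tail-anchored proteins into membranes, had 9.10, 9.78, 9.47, 8.999 and 9.27 at 50 mg/kg and 8.74, 9.62, 8.57 and 9.43 at 3 mg/kg, against 8.41, 8.38, 7.98, 8.04 and 8.36 with vehicle. Both doses lay above vehicle, although a second probe set changed by 0.07 at 50 mg/kg. Its log2 change was 1.09 at 50 mg/kg and 0.85 (SE 0.19) at 3 mg/kg. At 3 mg/kg the log2 changes of the ribosomal gene Rpl14, the respiratory complex gene Ndufa12, the cell cycle factor Mybl2 and Oaz1, which restrains polyamine synthesis, were 1.12, 0.87, 0.77 and 0.69. Second probe sets changed less at 3 mg/kg, by 0.36 for Rpl14 and 0.31 for Mybl2. Their mean signals over the osteoblast arrays were 2.92 for Rpl14, below the array medians, and 6.03 for Mybl2.

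The 3 genes that passed the direct test between the doses were Tvp23a, a Golgi membrane protein, Slc4a2, a chloride and bicarbonate exchanger, and Zfp219, a zinc finger protein. All were lower at 50 mg/kg than at 3 mg/kg, by 1.04, 0.93 and 0.76 (adjusted p = 0.0499 each). Zfp219 had 7.13, 6.77, 6.51, 6.86 and 6.60 at 50 mg/kg and 7.68, 7.57, 7.32 and 7.56 at 3 mg/kg, with 7.54, 7.46, 7.61, 7.50 and 7.31 for vehicle. The 3 mg/kg and vehicle arrays of Zfp219 shared a range and the 50 mg/kg arrays lay below it. Each of these 3 calls was lost in 17 of the 23 other settings.

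**Figure D5:**
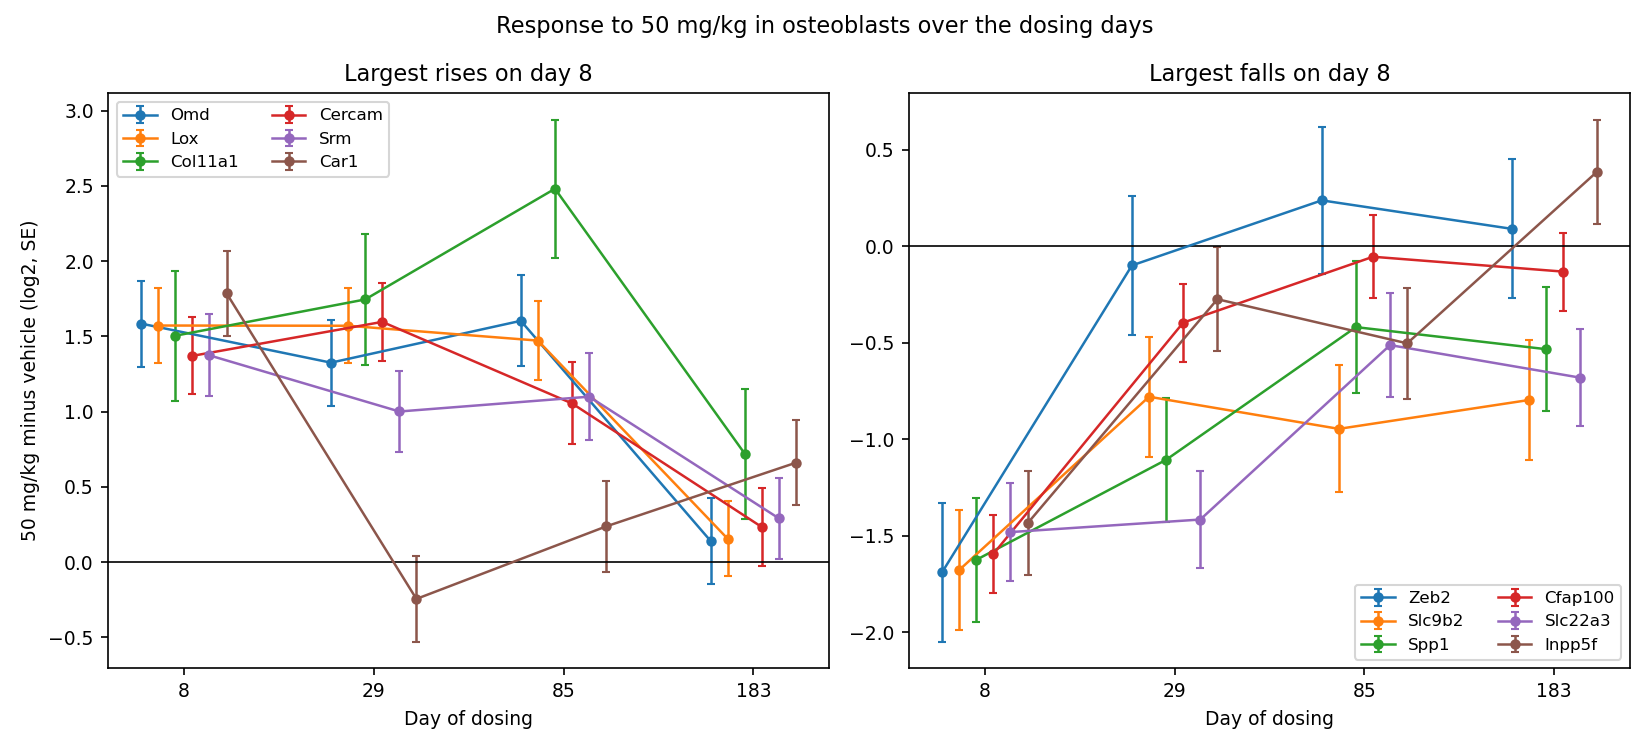
Log2 change of named genes at 50 mg/kg against vehicle in osteoblasts (vertical axis) on days 8, 29, 85 and 183 of dosing (horizontal axis). Points are limma estimates and bars their SE. Lox and Omd were raised by 1.33 to 1.60 on days 8, 29 and 85, whereas Zeb2, Cfap100 and Car1 had their largest changes on day 8.

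Other rats of the same treatments gave the response of osteoblasts on later days. On day 29 the test at 50 mg/kg was passed by 3239 genes (28.4%), on day 85 by 519 (4.54%) and on day 183 by 505 (4.42%). Of the 928 day 8 genes 275 passed on day 29 too, which is 29.6% of the 928 and 8.49% of the 3239, and 171 of the 275 moved in the same direction. Of the 928, 43 passed on day 85 (4.63%), 39 of them in the same direction, and 41 on day 183 (4.42%), 34 in the same direction. On each later day the share that passed was near that of all tested genes. The response itself differed between day 8 and day 29 for 1613 genes (14.1% of those tested), and 423 of the 928 were among them. With the spread of signals of each array as a covariate the 1613 became 111. Between day 8 and day 85 it differed for 218 (1.91%), and between day 8 and day 183 for 259 (2.27%). The matrix genes Lox, Omd, Col11a1 and Cercam passed the test on days 8, 29 and 85 and not on day 183. Log2 changes of Lox at 50 mg/kg were 1.57, 1.57, 1.47 and 0.15 on days 8, 29, 85 and 183, those of Omd 1.58, 1.33, 1.60 and 0.14, and those of Col11a1 1.50, 1.75, 2.48 and 0.72. Cercam and Slc13a5 had 1.37 and 1.34 on day 8 and 0.23 and 0.21 on day 183. Col1a1, at 0.85 on day 8, had 1.97 on day 29 and 2.41 on day 85, where it passed the test, and 0.22 on day 183. The difference of Col1a1 between days 8 and 29 did not pass. Ctsk was lower on all 4 days, by −1.15, −1.13, −1.58 and −0.96, and passed the test on each. The 9 osteoclast markers as a list had medians of −0.44, −0.45, −0.07 and 0.01. They gave 2 falls and no rise on day 29, 2 falls and 1 rise on day 85, and 1 fall and 1 rise on day 183. Mmp13 had −1.42, −1.01, −0.37 and 0.15, Tnc −1.32, −1.16, 0.05 and −0.10, and Lrp4 −0.86, −0.72, 0.25 and −0.15, each passing the test on days 8 and 29 only.

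The growth lists had more members that differed between days 8 and 29 than between day 8 and the later days. The same held over all tested genes, of which 14.1% differed from day 29, 1.91% from day 85 and 2.27% from day 183. The list counts come from the main fit. They were not redone with the spread of signals of each array as a covariate, where the 1613 genes became 111. Of 47 cell cycle genes 29 fell on day 29 and none rose, with a median of −0.57, and the response of 34 differed between the days. Respiratory chain genes gave 1 rise and 8 falls of 48 on day 29, and 26 differed. Among ribosomal protein genes there were 3 falls of 41, and 18 differed. Erythroid markers gave 1 rise and 2 falls of 13, and 8 differed. Of all 11420 genes tested, 881 rose and 2358 fell on day 29. The share of falls was above that of all genes tested for the cell cycle genes. It was below that share for the respiratory chain genes, the ribosomal protein genes and the erythroid markers. On day 183 cell cycle genes gave 9 rises and no fall with a median of 0.33, and 1 differed from day 8, while erythroid markers gave 1 rise with a median of 0.50, and 1 differed. The medians on day 183 were 0.22 for ribosomal protein genes and 0.23 for respiratory chain genes, with 1 and 2 members differing from day 8. On day 85 the medians were 0.11 for cell cycle and for ribosomal protein genes, 0.21 for respiratory chain genes and 0.10 for erythroid markers, with 1, 5, 0 and 2 members differing. The median over all tested genes was 0.03 on day 8, −0.08 on day 29, 0.03 on day 85 and 0.06 on day 183. Ccnb1 had log2 changes of 0.94, −0.76, 0.26 and 0.60 over the 4 days, Rplp0 1.03, 0.30, 0.10 and 0.11, Cox7b 0.98, −0.09, 0.22 and 0.35, and Car1 1.79, −0.25, 0.24 and 0.66. Among the falls Zeb2 had −1.69, −0.10, 0.24 and 0.09 and Cfap100 −1.59, −0.40, −0.05 and −0.13, while Slc22a3 had −1.48, −1.42, −0.51 and −0.68.

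On day 8 the same treatment changed 152 genes in osteocytes (1.33%) and 85 in lining cells (0.744%). Of the 928 osteoblast genes 57 (6.14%) passed in osteocytes and 59 (6.36%) in lining cells, which are 37.5% and 69.4% of the genes called there, and all moved in the same direction as in osteoblasts. The response to 50 mg/kg differed between osteoblasts and osteocytes for 1 gene (0.00876%), Tmem45a2, a transmembrane protein with a log2 change of −1.15 in osteoblasts and 0.26 in osteocytes (difference −1.41, SE 0.29, adjusted p = 0.0218). No gene differed between osteoblasts and lining cells with limma, while 281 had an unadjusted p under 0.05. Omd had log2 changes of 1.58 in osteoblasts, 1.98 in osteocytes and 1.51 in lining cells, Lox 1.57, 2.42 and 0.93, and Cfap100 −1.59, −1.19 and −0.97, and none passed the test of a difference between cell types. No member of the ribosomal, respiratory, cell cycle or ribosome biogenesis lists passed the test in osteocytes, and in lining cells 2 ribosomal protein genes rose. Medians of these lists, in that order, were 0.31, 0.26, 0.14 and 0.12 in lining cells, beside −0.00 over all tested genes. In osteocytes they were 0.10, 0.05, −0.14 and 0.02, beside −0.04. No member of these lists differed from osteoblasts in either cell type. Car1 changed by 0.84 in osteocytes and by 1.45 in lining cells, where it passed the test (adjusted p = 0.0056, limma). Captures of different cell types may come from the same rats, which the labels do not show.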

How the data were processed

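Expression was measured on 1-colour Affymetrix rat arrays of 31042 probe sets. The authors deposited 1 table of normalized intensity values on a linear scale, 2.94 to 28282, from which log2 values were taken here. RMA, affy 1.38.1, R 3.0.1 and Affymetrix Expression Console appear in the submitters' processing notes, with no step given for each. Array medians of the osteoblast arrays were 3.43 to 3.72 on the log2 scale. Detection calls are not given in the sources used here, and precision is set by how many arrays a group has.

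Of the probe sets 20826 had 1 listed gene, 436 had several and 9780 had none and were left out. Symbols were updated through gene IDs for 20758. A gene was represented by its probe set with the highest mean over the osteoblast arrays, and 4525 of 14217 genes had several. Genes above the array median in at least 5 of the 97 osteoblast arrays were tested, 11420 in all.

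Groups came from the labels' cell type, treatment and time. With R 4.3.3 and limma 3.58.1, 1 mean per treatment and day (20 groups) was fitted to the 97 osteoblast arrays, so that all osteoblast groups shared 1 estimate of the spread per gene. Each dose was set against vehicle, p-values were adjusted by Benjamini-Hochberg over all genes tested, and the threshold was 0.05. The comparison of cell types used the arrays of all 3 cell types (60 groups). Tests are two-sided. The fit was tested on simulated data. The labels do not state which arrays share a rat, so no block was used.

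The groups and the 32 gene lists were chosen with earlier results of these data known. Named genes were the 6 largest changes in each direction at 50 mg/kg only, those called between the doses, up to 4 called members of each list by adjusted p, and a fixed set of bone and Wnt genes. Genes near the threshold at 3 mg/kg were added after their values were seen, as were both printed promoters.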

Additional observations from a re-analysis of the deposited data

Results flagged for a closer look

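Groups were checked for 85 named genes and for measures of each array, such as the list means. Of 288 groups, 10 held an array that stood apart from the rest of its group by Dixon's criterion, all for genes. Chance meets this criterion in about 1 in 20 groups. The array was low in the 50 mg/kg group for Col11a2 (replicate 1, log2 signal 7.58) and stood apart for Lef1 (replicate 4, 5.34), Ccnd1 (replicate 2, 6.03) and Lpl (replicate 5, 5.25). In the 3 mg/kg group it was replicate 2 for Mmp13 (9.27) and replicate 4 for Wif1 (3.01). In the vehicle group it was replicate 2 for Cxcl12 (11.76) and Tek (5.68) and replicate 4 for Cxcl14 (6.08) and Gata1 (6.65).

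For 22 genes followed over the dosing days the log2 response to 50 mg/kg on day 8 was set against that on each later day, with adjusted p-values from limma over all genes tested. It differed for 7 of them on day 29, for 7 on day 85 and for 8 on day 183. Day 8 minus day 29 was 2.03 for Car1, 1.70 for Ccnb1, 1.07 for Cox7b, 0.74 for Rplp0, −1.59 for Zeb2, −1.20 for Cfap100 and −1.16 for Inpp5f. Day 8 minus day 85 was 1.55 for Car1, 0.94 for Rplp0, −1.93 for Zeb2, −1.54 for Cfap100, −2.08 for Fgfr2, −1.37 for Tnc and −1.12 for Lrp4. Day 8 minus day 183 was 1.44 for Omd, 1.42 for Lox, 0.92 for Rplp0, −1.78 for Zeb2, −1.46 for Cfap100, −1.82 for Inpp5f, −1.56 for Mmp13 and −1.22 for Tnc. The response of Tmem45a2 differed between osteoblasts and osteocytes by −1.41.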

How the results depend on the processing

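No paired analysis was possible because the labels give no replicate numbers and name no rat. Limits came from 4 or 5 arrays per group and from signals near the array median, where changes are compressed. The 928 genes called at 50 mg/kg became 537 with the day 8 arrays alone, 1675 with array weights and 1400 at an adjusted p under 0.10, and 494 (without 50 mg/kg replicate 2) to 1000 (without 50 mg/kg replicate 4) when 1 array was left out, with 589 without 50 mg/kg replicate 3 and 528 without vehicle replicate 3. Rises were 63.6% of the calls, and 51.7% without vehicle replicate 2. Genes called at 50 mg/kg only numbered 537, 1669 and 1393 in those settings, and 494 to 1000 with 1 array left out. At 3 mg/kg the calls were 1 with the filter on day 8 arrays, 7 with array weights, 1 with a trended robust prior, 1 with the signal range as covariate and 8 at an adjusted p under 0.10, and 0 to 31 with 1 array left out (31 without 3 mg/kg replicate 3, 10 without vehicle replicate 4, 6 without 3 mg/kg replicate 1). Called at both doses were 1, 6, 1, 1 and 7, and 0 to 25 with 1 array left out. Between the doses the 3 calls became 0 with the day 8 arrays alone, the compared groups alone, no filter or quantile normalization, 5 with the mean of probe sets, 67 with array weights, 5 with the signal range, 5 at an adjusted p under 0.10, and 0 to 5 with 1 array left out. The 1613 genes differing between days 8 and 29 became 1009 after quantile normalization, 111 with the signal range and 2673 with array weights, and 1021 to 2002 with 1 array left out. Osteoblasts against osteocytes gave 0 after quantile normalization or with the signal range, 184 with array weights, and 0 to 4 with 1 array left out. The causes were not tested. The 12 largest changes at 50 mg/kg kept their call in all 23 settings. Over 2437 values of 106 gene results, 2229 kept direction and call, 170 lost and 32 gained the call, and 6 turned sign: Igf1 after quantile normalization (−0.0246), Myc with the signal range (−0.0300) and Myc with 1 array left out (−0.0892 to 0.122).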

Other observations

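Several groups of genes with other roles had few members that passed the test at 50 mg/kg. Of all tested genes 5.17% rose and 2.96% fell, and these groups were not below both shares. Of 50 genes of the secretory pathway and unfolded protein response 3 rose and none fell, with a median log2 change of 0.11. They were Asns, asparagine synthetase (0.94, adjusted p = 0.036), Creb3l1, a regulator of collagen secretion in osteoblasts (0.56, adjusted p = 0.047), and Sec61g, a subunit of the protein channel of the endoplasmic reticulum (0.52, adjusted p = 0.025). Their calls were lost in 7, 14 and 6 of the 23 other settings. Of 14 p53 targets Cdkn1a, an inhibitor of cell cycle kinases, rose by 0.62 (adjusted p = 0.014), or 0.39 over the mean of its probe sets. Of 23 interferon response genes Isg20 rose by 0.72 and Psmb8 by 0.52. Of 20 immediate early and heat shock genes Egr1 fell by 1.09 (adjusted p = 0.0020). Of 26 solute carriers Slc13a5 rose, and Slc22a3 and the taurine transporter Slc6a6 fell, the last by 0.67, or by 0.40 over the mean of its probe sets.

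None of 14 osteocyte markers, 6 chondrocyte markers and 7 muscle markers passed the test. Of 12 endothelial markers Tek, an angiopoietin receptor, fell by 0.70 (adjusted p = 0.0090), and of 12 adipocyte markers Lpl, lipoprotein lipase, fell by 0.99 (adjusted p = 0.018, lost in 7 of the 23 other settings).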
